A study of Mus musculus with 22 samples.

Results

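The livers described here came from TG Aire-/- mice whose CD8+ T cells had been depleted, and they were set against livers of Aire+/+ mice. They are 4 libraries, 2 in each group, of the 22 samples in the series, chosen by their titles within the second batch of livers. The depleted livers carried the genotype TG Aire-/- and the treatment label CD8+ T depleted. A further pair of TG Aire-/- livers from the same table, labelled as without treatment, is given beside them. The Aire+/+ livers were also labelled as without treatment. All were C57BL/6 mice of 2 to 4 weeks, and RNA was taken from whole liver. No Aire+/+ liver was depleted of CD8+ T cells, so the effects of the transgene, of the lost Aire gene and of the depletion cannot be told apart in this comparison. No source used here names the depleting agent, its schedule or the age of each mouse within the range. The question is what differs from wild type once CD8+ T cells are gone.

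Aire lets medullary cells of the thymus express genes of other organs, so that developing T cells which recognise them are removed. The series title names the transgene as dnTGFβRII, a truncated type II TGF-β receptor expressed from the CD4 promoter, which blocks TGF-β signalling in T cells. In such mice activated CD8+ T cells gather in the liver, and T cell interferon-γ induces class II molecules and guanylate-binding proteins in other cells. Mouse liver also changes by itself between birth and weaning. It shuts off fetal genes such as Afp and H19, and adult secreted proteins such as the major urinary proteins follow later. Age within the labelled range and treatment cannot be told apart, since age was not given per mouse.

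Expression was deposited as RPKM (reads per gene, scaled to gene length and to the mapped reads of the library) for 24786 genes, of which 12231 reached 1 RPKM in at least 2 of the 6 livers and were tested. Depth inferred from the steps between low values was about 20300000 to 22700000 reads a library. Albumin RNA (Alb) made up 13.7% and 6.27% of all RPKM in the depleted livers, 5.92% and 5.19% in the undepleted TG Aire-/- livers and 8.93% and 10.5% in the Aire+/+ livers. By Xist and the Y-linked gene Ddx3y both depleted livers were male, while each of the other groups held 1 male and 1 female. Sex is therefore partly confounded with group. The labels do not say that replicates were separate animals. By these sexes the Aire+/+ pair and the undepleted pair each came from different animals, which leaves this open for the depleted pair. The p-values measure the spread between these libraries, part of which may be technical. All values below are for n = 2 livers a group, and ± gives the standard error (SE) of a log2(RPKM + 1) difference from limma, which understates the change of low genes.

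The depletion label was checked with the CD8 genes. Cd8a, the CD8 alpha chain, was listed at 0 and 0.187 RPKM in the depleted livers, 8.76 and 3.75 RPKM in the undepleted TG Aire-/- livers, and 0.161 and 0.22 RPKM in the Aire+/+ livers. Cd8b1, the beta chain, was listed at 0 and 0.0342 RPKM in depleted livers, 6.27 and 3 RPKM in undepleted ones, and 0.13 and 0.0699 RPKM in Aire+/+ livers. The depleted livers thus stood at or near the Aire+/+ level for both chains. In bulk RNA fewer cells of a type and less RNA per cell cannot be told apart. Cd4, which marks helper T cells and some macrophages, had 0.611 and 1.46 RPKM in depleted livers, 2.73 and 3.73 RPKM in undepleted livers and 0.285 and 0.286 RPKM in Aire+/+ livers. Against Aire+/+ it did not pass the test (log2 difference 0.63 ± 0.27 SE, limma adjusted p = 0.459). Aire was listed at 0 in all depleted and Aire+/+ livers, so its loss cannot be checked in this tissue. Tgfbr2, the receptor that the transgene opposes, had 8.44 and 10.6 RPKM in depleted livers, 12.5 and 23.9 RPKM in undepleted livers and 3.91 and 5.27 RPKM in Aire+/+ livers (log2 difference from Aire+/+ 0.92 ± 0.35, adjusted p = 0.392).

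The depleted livers differed from each other about as much as from wild type. Of the genes tested 1280 (10.5%) differed by at least 1 on the log2(RPKM + 1) scale between them, against 60 (0.491%) between the Aire+/+ livers. Between a depleted and an Aire+/+ liver the number was 1073 to 1430. The plot of replicate against replicate shows this spread. In data simulated over 12231 genes, the test recovered 69.4% of genes changed by 4 on the log2 scale, 9.5% of those changed by 2 and 0.0667% of those changed by 1. The simulation gave each gene the same spread in every group, unlike the pairs above, so these rates may not hold for this comparison.

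**Figure D1:**
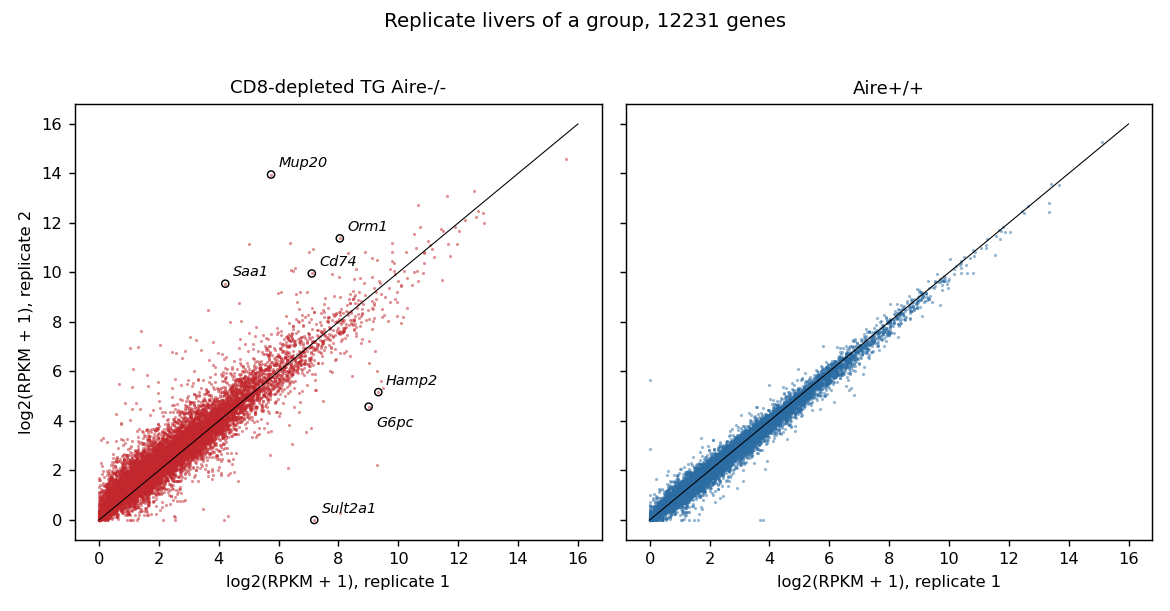
Level of each gene in replicate 2 (vertical, log2(RPKM + 1)) against replicate 1 (horizontal, same scale) for the CD8-depleted TG Aire-/- livers on the left and the Aire+/+ livers on the right, with the line of equal values. The depleted pair is wider: 1280 genes differ by at least 1, against 60 in the Aire+/+ pair, and 7 genes are ringed.

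In depleted TG Aire-/- liver against Aire+/+ liver, 27 of 12231 genes rose (0.221%) and 40 fell (0.327%), by limma with Benjamini-Hochberg adjustment at 0.05. At an unadjusted p under 0.05 there were 1327 genes, 481 higher and 846 lower. The values of the groups did not overlap, with both depleted livers above, in 2469 genes (20.2%), and with both below in 3528 (28.8%). Counts of calls and of genes without overlap in the lists below stand beside these shares, also where they are not repeated. The median over all genes was −0.04 (log2). Among genes that passed, the largest rises were hepcidin (Hamp), a set of major urinary protein genes and the desaturase Scd1, and the largest falls the imprinted RNA H19 with its microRNA gene Mir675 and the P450 genes Cyp3a16 and Cyp2a22. Of the genes called, 5 were Mup genes, 4 amylase genes and 3 Sult2a genes, families whose members share reads, and 2 rises and 3 falls were unnamed gene models.

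The size of the list depended on single libraries. Without depleted replicate 1 there were 94 genes higher and 47 lower, and without depleted replicate 2 there were 10 and 13. Without undepleted TG Aire-/- replicate 1 or 2, which enter only through the shared estimate of spread, there were 5 and 8 or 5 and 9. Without Aire+/+ replicate 1 there were 7 and 7, and without replicate 2 there were 16 and 9. In the male livers alone, an alternative chosen after seeing the data, 2 rose and 2 fell. Of the 67 genes called, 8 passed in each of the 6 fits that leave out 1 library, namely Hamp, Scd1, Wfdc21, Cyp3a16, H19, Mir675, Gpc3 and Pcp4l1. Cyp2a4 lost its call only without depleted replicate 2 (adjusted p = 0.0512) and Pigr only without Aire+/+ replicate 1 (adjusted p = 0.0575). Amy2a5 and Pnliprp1 met the filter only through the Aire+/+ livers. Of the fits that leave out 1 library they could thus enter only 4, in which they passed. The calls of 19 genes were lost in every such fit, and among them are Cdkn1c, Eln, Elovl3, G0s2, Gbp2, Jchain, Myl9, Sult1c2 and Cd209g, described below. The other called genes passed in 1 to 4 of them. Genes that met the filter only through 1 group could not enter the fits without a liver of that group. The filter also fixed the direction of their calls. Besides Amy2a5 and Pnliprp1, named genes of this kind were Amy2a2, Cd209f, Cd209g, Elovl3, Slc6a11, Sult2a4 and Sult2a6 through Aire+/+ livers. Through depleted livers they were Cyp26a1, Dreh, Jchain, Snord57, Mup2, Mup10, Mup13 and Mup14.

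**Figure D2:**
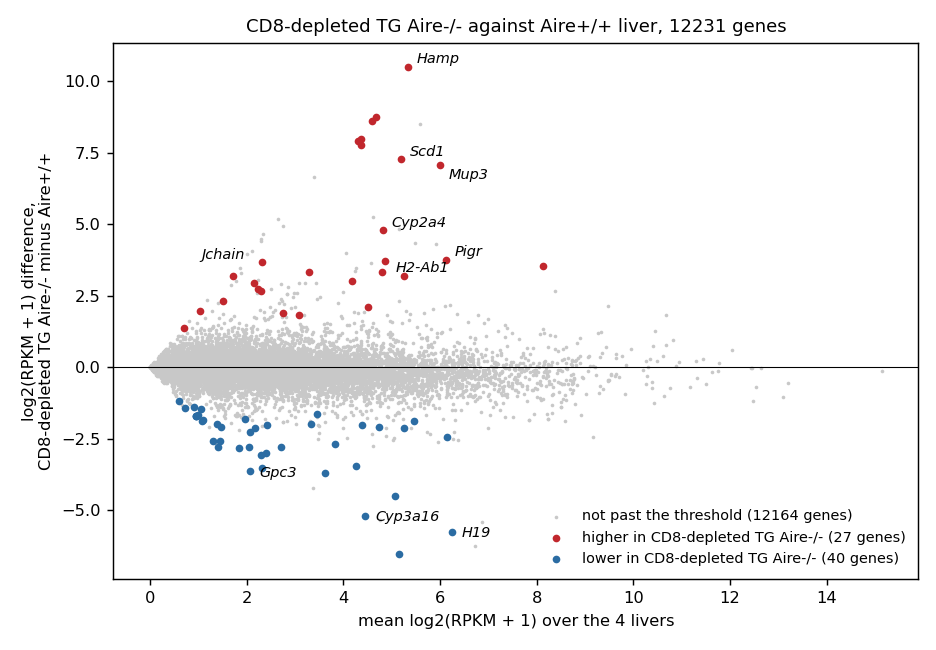
Difference of log2(RPKM + 1) between CD8-depleted TG Aire-/- and Aire+/+ livers (vertical) against the mean level over these 4 livers (horizontal) for 12231 genes. The 27 genes that rose are red, the 40 that fell blue, and Hamp lies highest at 10.5.

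Hepcidin showed the widest difference. Hamp encodes the liver hormone that blocks iron export through ferroportin, and it lies on chromosome 7 (30942368 to 30944032, minus strand, GRCm38). It had 2820 and 834 RPKM in the depleted livers, 1.39 and 3.02 RPKM in the undepleted livers, and 0 and 0.122 RPKM in the Aire+/+ livers. Both depleted livers stood far above all 4 others (log2 difference from Aire+/+ 10.5 ± 0.55 SE, adjusted p = 0.000783). Its neighbour Hamp2 had 643 and 34.9 RPKM in depleted livers, 0.295 and 0.0349 RPKM in undepleted livers and 1.7 and 4.9 RPKM in Aire+/+ livers. The groups did not overlap, but the depleted livers lay far apart and the gene did not pass the test (log2 difference 5.25 ± 1.14, adjusted p = 0.137). The starts of both genes are shown because they are duplicates whose reads may be shared. These are the 250 bases before the start of transcription, credited to RefSeq (GRCm38.p6), at chr7:30944030-30944279 for Hamp and chr7:30924182-30924431 for Hamp2, both on the minus strand and written 5′ to 3′. Capitals mark a STAT element of the form TTCNNNGAA and, in Hamp only, the letters GGCGCC of the BMP-responsive element.
Hamp: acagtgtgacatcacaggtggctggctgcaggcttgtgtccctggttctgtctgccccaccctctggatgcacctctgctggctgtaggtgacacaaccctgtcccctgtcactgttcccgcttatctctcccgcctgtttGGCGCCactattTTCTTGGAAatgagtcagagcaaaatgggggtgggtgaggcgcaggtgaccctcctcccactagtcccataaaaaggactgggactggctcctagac
Hamp2: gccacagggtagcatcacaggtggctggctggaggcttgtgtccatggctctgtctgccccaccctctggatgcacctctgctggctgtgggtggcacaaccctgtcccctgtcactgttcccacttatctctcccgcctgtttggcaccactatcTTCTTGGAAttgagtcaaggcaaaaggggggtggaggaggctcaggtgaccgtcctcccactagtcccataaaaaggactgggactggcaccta

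Searched on both strands, TTCNNNGAA lies in 7.02% and GGCGCC in 9.59% of 32851 promoter windows of the same length. A match describes letters and not a bound site. BMP signals and interleukin-6 acting through STAT3 are the textbook inducers of hepcidin. The genes given here, Id1 and Smad7, belong to the BMP route. Id1, a BMP target, had 10.2 and 5.13 RPKM in depleted livers and 24 and 20.4 RPKM in undepleted livers. In Aire+/+ livers it had 5.51 and 2.56 RPKM. Smad7, a feedback inhibitor of BMP and TGF-β signals, had 1.55 and 1.71 RPKM in depleted livers, 2.89 and 8.17 RPKM in undepleted livers and 0.892 and 1.16 RPKM in Aire+/+ livers. Against Aire+/+ neither passed the limma test (adjusted p = 0.547 for Id1 and 0.805 for Smad7). For Smad7 both depleted livers lay above both Aire+/+ livers, and for Id1 the groups overlapped. Whether either route bears on the level of Hamp was not tested. Tfrc, the transferrin receptor that rises when cells lack iron, had 8.27 and 6.82 RPKM in depleted livers, 50.9 and 46.6 RPKM in undepleted livers and 23.5 and 34.8 RPKM in Aire+/+ livers. Both depleted livers lay below all others, just short of the threshold (log2 difference −1.80 ± 0.29, adjusted p = 0.0523). Of 29 iron and heme genes tested, Hamp alone rose and 0 fell, with a median of −0.13.

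No other acute-phase gene passed the test, although some lay above wild type in both depleted livers. Of 32 tested, Hamp rose and 0 fell, and the groups did not overlap with 11 above and 4 below (median 0.25). Serum amyloid A genes, whose products are made in large amounts during inflammation, lay far apart within the depleted pair. Saa2 had 11.5 and 354 RPKM in depleted livers and did not pass. Its log2 difference from Aire+/+ ranged from 1.58 to 6.41 over 18 alternative settings. Saa1 had 17.6 and 747 RPKM in depleted livers, 3.26 and 4.65 RPKM in undepleted livers and 31.7 and 23.8 RPKM in Aire+/+ livers, so 1 depleted liver lay below wild type and 1 far above. Orm1, an orosomucoid, had 263 and 2660 RPKM in depleted livers, against 126 and 133 RPKM in Aire+/+ livers, and Lcn2, an iron-chelating lipocalin, had 82.8 and 2350 RPKM in depleted livers, against 170 and 177 RPKM in Aire+/+ livers. Neither passed the test (adjusted p = 0.326 for Orm1 and 0.797 for Lcn2). Mt1, a metallothionein, was even within groups at 2120 and 2210 RPKM in depleted livers, 656 and 1180 RPKM in undepleted livers and 924 and 866 RPKM in Aire+/+ livers (log2 difference 1.28 ± 0.43, adjusted p = 0.324).

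A pair of small secreted proteins of the liver moved in opposite directions. Wfdc21, a whey acidic protein domain gene, had 949 and 971 RPKM in depleted livers, 6.35 and 6.99 RPKM in undepleted livers and 84.5 and 79 RPKM in Aire+/+ livers. It rose against Aire+/+ by 3.54 ± 0.26 (adjusted p = 0.00315), while the undepleted livers lay below wild type. Leap2, the liver peptide that blocks the ghrelin receptor, had 7.14 and 3.13 RPKM in depleted livers, 33.1 and 32.1 RPKM in undepleted livers and 93.1 and 41.3 RPKM in Aire+/+ livers. It fell by 3.45 ± 0.46 on the log2 scale (adjusted p = 0.0284). It did not pass without depleted replicate 2 (adjusted p = 0.099), either undepleted liver (0.098 and 0.0961) or Aire+/+ replicate 1 (0.137).

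**Figure D3:**
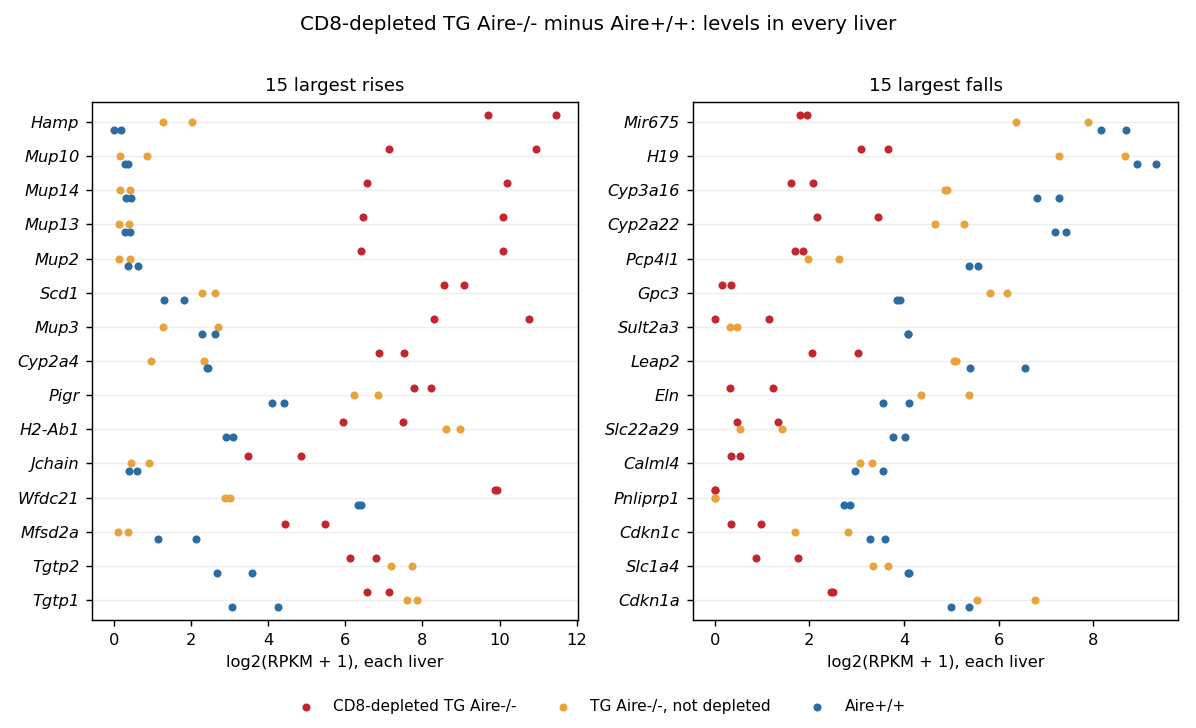
Levels, as log2(RPKM + 1), of the 15 largest rises (left) and 15 largest falls (right) of CD8-depleted TG Aire-/- against Aire+/+ liver, with 1 point a liver and groups in colour. Every red pair lies apart from the blue pair because genes were picked for groups without overlap. The position of the undepleted livers differs from gene to gene. They lie on the far side of Aire+/+ (Wfdc21), near it (Mup10) or beyond the depleted livers (H2-Ab1).

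Major urinary proteins are pheromone-binding lipocalins that adult male liver secretes under pulses of growth hormone. Of 15 Mup genes tested, 5 rose and 0 fell, beside 0.221% and 0.327% of all genes. Mup10, Mup13, Mup14 and Mup2 met the filter only through the depleted livers, so a fall could not be found for them. Mup10 (chromosome 4, 60578260 to 60582199, minus strand) had 140 and 1980 RPKM in depleted livers, 0.807 and 0.107 RPKM in undepleted livers and 0.208 and 0.277 RPKM in Aire+/+ livers. It rose by 8.74 ± 1.03 (adjusted p = 0.0194), and both depleted livers lay above all others although they differed widely between themselves. Mup3 had 315 and 1750 RPKM in depleted livers, 5.49 and 1.39 RPKM in undepleted livers and 3.85 and 5.1 RPKM in Aire+/+ livers (log2 difference 7.09 ± 0.78, adjusted p = 0.015). Mup14, Mup13 and Mup2 rose by 8, 7.93 and 7.77. Their sequences are close to identical, so the split of reads between them is uncertain. Mup20, the male pheromone darcin, had 52.7 and 15900 RPKM in depleted livers, 10.6 and 5.09 RPKM in undepleted livers and 1.14 and 1.99 RPKM in Aire+/+ livers. With that spread it did not pass (log2 difference 8.51 ± 2.15, adjusted p = 0.195).

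Outside the Mup genes the growth hormone list held few calls. Of 33 genes tested 2 rose and 1 fell, and the median was 0.22. Besides Mup3, Cyp2a4, a steroid hydroxylase that adult females express more, rose. It had 184 and 117 RPKM in depleted livers, 4.02 and 0.931 RPKM in undepleted livers and 4.29 and 4.4 RPKM in Aire+/+ livers (log2 difference 4.79 ± 0.46, adjusted p = 0.00888). Elovl3, an elongase of very long fatty acids that adult males express more, fell, with 0 and 0.336 RPKM in depleted livers, 0.0233 and 0.0517 RPKM in undepleted livers and 2.2 and 1.94 RPKM in Aire+/+ livers (log2 difference −1.41 ± 0.22, adjusted p = 0.0469). Both depleted livers were male. Igf1, the growth factor that growth hormone induces, had 69.9 and 65.2 RPKM in depleted livers, 27.8 and 17.9 RPKM in undepleted livers and 65.1 and 79.7 RPKM in Aire+/+ livers (adjusted p = 0.946). Ghr, the receptor itself, had 45.9 and 54 RPKM in depleted livers, 16.4 and 18.8 RPKM in undepleted livers and 60.6 and 78.1 RPKM in Aire+/+ livers (adjusted p = 0.612). Igfals, the subunit that stabilises circulating Igf1, had 12.3 and 23.9 RPKM in depleted livers, 3.34 and 3.38 RPKM in undepleted livers and 39.2 and 44.9 RPKM in Aire+/+ livers (adjusted p = 0.224).

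The fetal and early postnatal liver list held 3 falls. H19, an imprinted long noncoding RNA of chromosome 7 (142575529 to 142578143, minus strand), had 7.53 and 11.6 RPKM in depleted livers, 408 and 153 RPKM in undepleted livers and 487 and 644 RPKM in Aire+/+ livers. It fell by 5.76 ± 0.49 on the log2 scale (adjusted p = 0.0053). Mir675 lies inside H19 and its reads are those of the host RNA, with 2.87 and 2.5 RPKM in depleted livers, 237 and 81.1 RPKM in undepleted livers and 412 and 285 RPKM in Aire+/+ livers (fell by 6.55 ± 0.49, adjusted p = 0.00315). The mature microRNAs, which these libraries do not separate from H19, are shown with their seed (bases 2 to 8) in capitals, from RefSeq at chr7:142577112-142577133 and chr7:142577078-142577099.
mmu-miR-675-5p: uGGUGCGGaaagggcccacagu
mmu-miR-675-3p: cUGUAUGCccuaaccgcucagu

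Gpc3, glypican-3 of the cell surface (X chromosome, 52272426 to 52613950, minus strand), had 0.279 and 0.106 RPKM in depleted livers, 55.4 and 70.9 RPKM in undepleted livers and 14.2 and 13.5 RPKM in Aire+/+ livers. It fell by 3.64 ± 0.26 on the log2 scale (adjusted p = 0.00287), with the undepleted livers on the other side of wild type. Cdkn1c, an imprinted inhibitor of cyclin-dependent kinases, had 0.966 and 0.274 RPKM in depleted livers, 6.02 and 2.23 RPKM in undepleted livers and 11.1 and 8.78 RPKM in Aire+/+ livers (fell by 2.78 ± 0.41, adjusted p = 0.0428). Of 16 oncofetal and early postnatal genes tested, these 3 fell and 0 rose, with 10 below and 2 above without overlap and a median of −0.37. Afp, the fetal counterpart of albumin, had 1.43 and 1.56 RPKM in depleted livers, 523 and 742 RPKM in undepleted livers and 6.27 and 4.69 RPKM in Aire+/+ livers. The depleted livers lay below wild type without passing the test (log2 difference −1.36 ± 0.29, adjusted p = 0.123). Igf2, the fetal growth factor next to H19, was listed at 0 and 0.0429 RPKM in depleted livers, 25.8 and 11.8 RPKM in undepleted livers and 3.29 and 8.39 RPKM in Aire+/+ livers (adjusted p = 0.0751).

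Cdkn1a, the cell cycle inhibitor p21, fell as well. It had 4.5 and 4.69 RPKM in depleted livers, 45.9 and 108 RPKM in undepleted livers and 40.7 and 30.8 RPKM in Aire+/+ livers (log2 difference −2.70 ± 0.41, adjusted p = 0.0451). Cdkn1a passed in 1 of the 6 fits that leave out 1 library, that without undepleted replicate 2, and its highest adjusted p was 0.342, without Aire+/+ replicate 1. Of 27 p53 and damage genes tested it was the 1 that fell and 0 rose (median 0.03). Proliferation genes held no call among 43 tested, with 16 below and 0 above without overlap, beside 28.8% below and 20.2% above of all genes, and a median of −0.43. Mki67, the proliferation antigen, had 0.376 and 1.96 RPKM in depleted livers, 14 and 8.6 RPKM in undepleted livers and 0.924 and 1.78 RPKM in Aire+/+ livers.

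**Figure D4:**
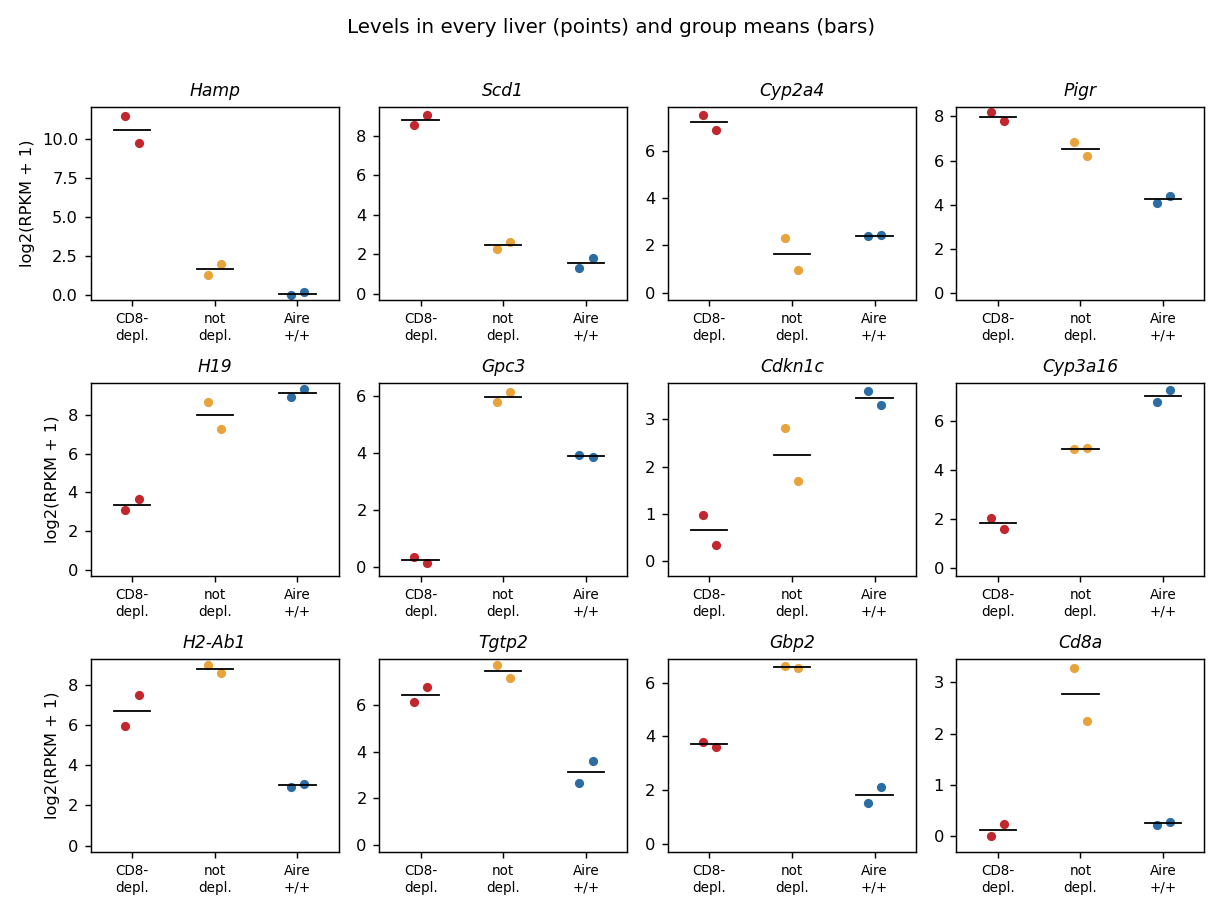
Levels, as log2(RPKM + 1), of 12 genes in each liver (points) with group means (bars), for CD8-depleted TG Aire-/-, undepleted TG Aire-/- and Aire+/+ livers from left to right in each panel. The top row stands highest in depleted livers, the middle row lowest there, and the bottom row gives interferon-γ and class II genes between the other groups, with Cd8a near 0 in depleted and Aire+/+ livers.

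Within fatty acid synthesis Scd1 and Elovl6 rose and Elovl3 fell. Scd1, the stearoyl-CoA desaturase that makes monounsaturated fat (chromosome 19, 44394455 to 44407879, minus strand), had 376 and 542 RPKM in depleted livers, 3.89 and 5.13 RPKM in undepleted livers and 1.47 and 2.48 RPKM in Aire+/+ livers. It rose by 7.27 ± 0.31 (adjusted p = 0.000379), the smallest adjusted p of all genes. Elovl6, which lengthens palmitate, had 7.17 and 16.8 RPKM in depleted livers, 2.03 and 1.37 RPKM in undepleted livers and 0.854 and 0.776 RPKM in Aire+/+ livers (log2 difference 2.73 ± 0.38, adjusted p = 0.0327). Of 29 genes of fatty acid synthesis and storage, these were the calls, and the groups did not overlap with 12 above and 7 below (median 0.15).

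Enzymes upstream of Scd1 did not pass the test. Fasn, fatty acid synthase, had 12.9 and 28.7 RPKM in depleted livers, 2.5 and 2.26 RPKM in undepleted livers and 5.56 and 6.85 RPKM in Aire+/+ livers (log2 difference 1.50 ± 0.38, adjusted p = 0.192). Acss2, which activates acetate, had 22.7 and 33.8 RPKM in depleted livers, 4.07 and 3.07 RPKM in undepleted livers and 6.52 and 8.29 RPKM in Aire+/+ livers (adjusted p = 0.0614). Srebf1, the transcription factor of this pathway, had 19 and 12.7 RPKM in depleted livers, 18.1 and 18.5 RPKM in undepleted livers and 27.3 and 33.6 RPKM in Aire+/+ livers. Its depleted values thus lay below wild type (adjusted p = 0.288). Of 30 cholesterol synthesis and uptake genes none passed, and the median was 0.54. Among them 13 lay above and 4 below without overlap, beside 20.2% and 28.8% of all genes.

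Other lipid genes held 1 rise and 1 fall. Mfsd2a, a transporter of lysophosphatidylcholine, had 43.3 and 20.6 RPKM in depleted livers, 0.284 and 0.0673 RPKM in undepleted livers and 1.2 and 3.38 RPKM in Aire+/+ livers (log2 difference 3.32 ± 0.44, adjusted p = 0.0287). G0s2, an inhibitor of triglyceride lipase, fell to 10.5 and 13.4 RPKM in depleted livers, against 30.2 and 29.7 RPKM in undepleted livers and 64.5 and 45.2 RPKM in Aire+/+ livers (log2 difference −2.09 ± 0.29, adjusted p = 0.0311). None of 38 fatty acid oxidation and ketogenesis genes passed, while 27 lay below and 0 above without overlap, beside 28.8% and 20.2% of all genes, and the median was −0.77. Bdh1, which acts on ketone bodies, had 19.7 and 28.7 RPKM in depleted livers, 55.3 and 21.4 RPKM in undepleted livers and 131 and 115 RPKM in Aire+/+ livers (adjusted p = 0.0949).

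Cytochrome P450 genes of drug and steroid metabolism went both ways. Of 47 tested 1 rose (Cyp2a4, above) and 2 fell, with 16 above and 16 below without overlap and a median of −0.07, where the undepleted livers had a median of −1.55 against the same controls. Cyp3a16, a form of newborn mouse liver (chromosome 5, 145436309 to 145469723, minus strand), had 3.2 and 2.06 RPKM in depleted livers, 28.2 and 28.9 RPKM in undepleted livers and 111 and 155 RPKM in Aire+/+ livers. It fell by 5.20 ± 0.30 on the log2 scale (adjusted p = 0.000941). Cyp2a22 had 9.93 and 3.48 RPKM in depleted livers, 37.7 and 24.1 RPKM in undepleted livers and 171 and 146 RPKM in Aire+/+ livers (fell by 4.51 ± 0.45, adjusted p = 0.0101). Both stood lowest in the depleted livers, with the undepleted livers between. Near-identical copies in these families make the values of single genes uncertain.

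Major adult P450 enzymes did not pass the test against wild type. Cyp2e1, which oxidises ethanol, had 3410 and 1640 RPKM in depleted livers, 30.6 and 24.6 RPKM in undepleted livers and 3540 and 3660 RPKM in Aire+/+ livers (log2 difference −0.60 ± 0.44, adjusted p = 0.697). Cyp1a2, a pericentral enzyme, had 76.5 and 174 RPKM in depleted livers, 1.74 and 0.128 RPKM in undepleted livers and 218 and 235 RPKM in Aire+/+ livers (adjusted p = 0.565). Cyp3a11, the main drug-metabolising form, had 1480 and 3040 RPKM in depleted livers, 279 and 152 RPKM in undepleted livers and 1040 and 1490 RPKM in Aire+/+ livers (adjusted p = 0.663). For each gene both depleted livers lay above both undepleted livers. Against Aire+/+ both lay below for Cyp2e1 and Cyp1a2, and for Cyp3a11 the groups overlapped.

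Retinoid genes were among those called. Cyp26a1, which degrades retinoic acid, had 12 and 6.6 RPKM in depleted livers, was listed at 0 in both undepleted livers and had 0.157 and 0.0399 RPKM in Aire+/+ livers. It rose by 3.18 ± 0.29 (adjusted p = 0.00703). Rdh9, a retinol and steroid dehydrogenase, had 42.1 and 19.9 RPKM in depleted livers, 23.4 and 20.2 RPKM in undepleted livers and 178 and 150 RPKM in Aire+/+ livers (fell by 2.45 ± 0.38, adjusted p = 0.0469). The start of Cyp26a1 is shown because it holds the paired half-sites through which retinoic acid receptors are known to act on this gene. They are the capitals, TGAACT repeated with 5 bases between, which lie on either strand in 0.0213% of 32851 promoter windows. The stretch is the 250 bases before its start at chr19:37697558-37697807, plus strand (RefSeq, GRCm38.p6).
Cyp26a1: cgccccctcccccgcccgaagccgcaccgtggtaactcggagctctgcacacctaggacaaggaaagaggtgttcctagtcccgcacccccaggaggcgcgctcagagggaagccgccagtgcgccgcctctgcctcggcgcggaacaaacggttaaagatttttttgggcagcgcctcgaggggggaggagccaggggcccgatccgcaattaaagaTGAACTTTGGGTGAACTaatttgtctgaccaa

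Conjugation and transport genes held a few falls. Of 45 phase II genes tested Sult1c2, a sulfotransferase, fell and 0 rose (median 0.07). It had 0.822 and 1.53 RPKM in depleted livers, 3.2 and 3.95 RPKM in undepleted livers and 9.61 and 7.41 RPKM in Aire+/+ livers (log2 difference −2.14 ± 0.28, adjusted p = 0.0282). Outside that list, 3 of 7 Sult2a genes, which sulfate bile acids and steroids, fell. Sult2a3 had 1.2 and 0 RPKM in depleted livers, 0.386 and 0.257 RPKM in undepleted livers and 15.9 and 15.9 RPKM in Aire+/+ livers (log2 difference −3.51 ± 0.37, adjusted p = 0.0121). Slc22a29, of the organic anion transporter family, had 1.53 and 0.396 RPKM in depleted livers, 1.67 and 0.444 RPKM in undepleted livers and 12.7 and 15.3 RPKM in Aire+/+ livers (fell by 2.99 ± 0.40, adjusted p = 0.0282). In both genes the depleted and undepleted livers overlapped. Ces3b, a carboxylesterase, rose instead, with 39.4 and 64.5 RPKM in depleted livers, 0.272 and 0.141 RPKM in undepleted livers and 4.41 and 6.4 RPKM in Aire+/+ livers (log2 difference 3.02 ± 0.32, adjusted p = 0.0121).

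Bile acid genes showed no call. None of 22 tested passed, and the median was −0.40. Among them 12 lay below and 3 above without overlap, beside 28.8% and 20.2% of all genes. Cyp7a1, the rate-limiting enzyme of bile acid synthesis, had 49.2 and 27.9 RPKM in depleted livers, 5.98 and 0.787 RPKM in undepleted livers and 24.1 and 23.2 RPKM in Aire+/+ livers (adjusted p = 0.786). Nr0b2, the receptor SHP that represses Cyp7a1, had 5.41 and 1.98 RPKM in depleted livers, 3.3 and 2.55 RPKM in undepleted livers and 17.5 and 10.8 RPKM in Aire+/+ livers (log2 difference −1.76 ± 0.41, adjusted p = 0.165). Abcb11, the bile salt export pump, had 26.8 and 44.3 RPKM in depleted livers, 17.8 and 6.5 RPKM in undepleted livers and 79.6 and 74.5 RPKM in Aire+/+ livers (adjusted p = 0.429). Of 19 transport genes none passed. Slc22a7, an organic anion transporter, came nearest at 0.848 and 5.12 RPKM in depleted livers, 2.07 and 0.194 RPKM in undepleted livers and 46.4 and 39 RPKM in Aire+/+ livers (adjusted p = 0.0614).

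The interferon-γ response list stood above wild type in the depleted livers. Of 31 tested, Tgtp1, Tgtp2 and Gbp2 rose and 0 fell. The groups did not overlap with 28 above and 1 below, beside 20.2% and 28.8% of all genes. The median was 1.26, beside −0.04 over all genes. The undepleted livers had a median of 2.80 over the same list and controls. Of the 31 genes 30 were higher in depleted replicate 2 than in replicate 1, 9 of them by at least 1 (log2). Tgtp2, an interferon-inducible GTPase (chromosome 11, 49057194 to 49064206, minus strand), had 68.9 and 109 RPKM in depleted livers, 212 and 145 RPKM in undepleted livers and 5.4 and 11 RPKM in Aire+/+ livers (log2 difference 3.32 ± 0.41, adjusted p = 0.0205). Its near copy Tgtp1 had 92.7 and 139 RPKM in depleted livers, 229 and 192 RPKM in undepleted livers and 7.29 and 18 RPKM in Aire+/+ livers (log2 difference 3.19 ± 0.43, adjusted p = 0.0296). Gbp2, a guanylate-binding protein (chromosome 3, 142620602 to 142638008, plus strand), had 13 and 11.1 RPKM in depleted livers, 98.1 and 92.4 RPKM in undepleted livers and 1.88 and 3.28 RPKM in Aire+/+ livers (log2 difference 1.89 ± 0.28, adjusted p = 0.0451). On the log2 scale the depleted livers lay nearer to wild type for Gbp2, and nearer to the undepleted livers for both Tgtp genes. Gbp2 lost its call without any 1 library (adjusted p = 0.0833 to 0.621). Tgtp1 and Tgtp2 kept theirs only without depleted replicate 1 or Aire+/+ replicate 2, and reached 0.215 and 0.159 without Aire+/+ replicate 1.

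The starts of Gbp2 and Tgtp1 are shown since both rose and both hold an interferon-stimulated response element, here GAAA repeated with 2 bases between, on either strand, which lies in 2.98% of 32851 windows. Capitals mark it and, in Tgtp1, also a STAT element of the form given above. The stretches are the 250 bases before the RefSeq starts at chr3:142620413-142620662, plus strand, and chr11:48992247-48992496, minus strand (GRCm38.p6).
Gbp2: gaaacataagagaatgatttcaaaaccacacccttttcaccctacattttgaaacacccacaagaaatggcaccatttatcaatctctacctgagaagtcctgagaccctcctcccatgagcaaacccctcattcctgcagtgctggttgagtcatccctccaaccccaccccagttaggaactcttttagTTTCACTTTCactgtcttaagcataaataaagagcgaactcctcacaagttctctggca
Tgtp1: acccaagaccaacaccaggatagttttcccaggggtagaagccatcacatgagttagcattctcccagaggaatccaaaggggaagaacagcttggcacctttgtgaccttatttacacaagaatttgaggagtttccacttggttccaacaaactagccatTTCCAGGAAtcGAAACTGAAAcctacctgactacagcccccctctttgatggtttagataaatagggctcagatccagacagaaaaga

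Cxcl9 and Ubd were above wild type in both depleted livers without passing. Cxcl9, the interferon-γ chemokine that draws T cells, had 12.1 and 23.9 RPKM in depleted livers, 111 and 50.4 RPKM in undepleted livers and 1.08 and 1.76 RPKM in Aire+/+ livers (log2 difference 2.91 ± 0.46, adjusted p = 0.0515). Ubd, the ubiquitin-like FAT10, had 2.88 and 46.8 RPKM in depleted livers, 402 and 170 RPKM in undepleted livers and 0.248 and 1.17 RPKM in Aire+/+ livers (adjusted p = 0.329). Of 36 type I interferon genes none passed, 6 lay above and 1 below without overlap, beside 20.2% and 28.8% of all genes, and the median was 0.28. Isg15, a main type I target, had 3.45 and 7.42 RPKM in depleted livers, 75.2 and 22.5 RPKM in undepleted livers and 9.75 and 7.04 RPKM in Aire+/+ livers.

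Of the class II genes 1 rose, and the list was higher in depleted replicate 2. H2-Ab1, the class II beta chain (chromosome 17, 34257689 to 34269419, plus strand), had 60.1 and 180 RPKM in depleted livers, 503 and 389 RPKM in undepleted livers and 6.51 and 7.52 RPKM in Aire+/+ livers. It rose by 3.71 ± 0.49 against Aire+/+ (adjusted p = 0.0282), and did so without either depleted liver but not without an undepleted or Aire+/+ liver (adjusted p = 0.0926 to 0.162). H2-Aa, the alpha chain, had 60.5 and 218 RPKM in depleted livers, 677 and 585 RPKM in undepleted livers and 8.31 and 10.9 RPKM in Aire+/+ livers (log2 difference 3.46 ± 0.55, adjusted p = 0.0523). Cd74, the invariant chain, had 137 and 995 RPKM in depleted livers, 1610 and 1740 RPKM in undepleted livers and 18.4 and 23.1 RPKM in Aire+/+ livers (adjusted p = 0.0962). Of 15 class II genes 12 lay above and 2 below without overlap, beside 20.2% and 28.8% of all genes. H2-Ab1 alone rose and 0 fell, and the median of the 15 was 0.98. Their sum was 335 and 1650 RPKM in depleted livers, 3630 and 3460 RPKM in undepleted livers and 73.3 and 84.5 RPKM in Aire+/+ livers, and 14 of 15 were higher in depleted replicate 2, 8 of them by at least 1 (log2). Among 24 class I and antigen processing genes none passed, with 13 above and 1 below (median 0.59).

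T cell genes other than Cd8a and Cd8b1 stood slightly above wild type. None of 15 pan-T genes passed, and 12 lay above and 0 below without overlap, beside 20.2% and 28.8% of all genes. The median of these 15 was 0.58. Their summed level was 14.1 and 22.1 RPKM in depleted livers, 81.1 and 55.5 RPKM in undepleted livers and 8.85 and 7.09 RPKM in Aire+/+ livers. Cd3e, a chain of the T cell receptor complex, had 1.13 and 2.06 RPKM in depleted livers, 6.96 and 4.6 RPKM in undepleted livers and 0.323 and 0.17 RPKM in Aire+/+ livers (log2 difference 1.04 ± 0.29, adjusted p = 0.236). None of 9 cytotoxic and NK genes passed, with 6 above and 0 below (median 0.48). Gzmb, granzyme B, had 2.88 and 2.81 RPKM in depleted livers, 45.6 and 31.4 RPKM in undepleted livers and 1.5 and 2.05 RPKM in Aire+/+ livers, and Prf1, perforin, had 0.14 and 0.257 RPKM in depleted livers, 4.9 and 3.32 RPKM in undepleted livers and 0.057 and 0.048 RPKM in Aire+/+ livers. Tigit, an inhibitory receptor, had 0.862 and 1.62 RPKM in depleted livers, 5.64 and 4.78 RPKM in undepleted livers and 0.0633 and 0 RPKM in Aire+/+ livers (adjusted p = 0.153). Both depleted livers stood above both Aire+/+ livers and below both undepleted livers for Tigit, Gzmb, Prf1 and Cd3e.

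Single genes of antibody transport and B cell attraction rose. Pigr, the receptor that carries polymeric IgA into bile (chromosome 1, 130826684 to 130852249, plus strand), had 296 and 217 RPKM in depleted livers, 115 and 73.3 RPKM in undepleted livers and 16 and 20.1 RPKM in Aire+/+ livers (log2 difference 3.75 ± 0.34, adjusted p = 0.00703). Jchain, which joins IgA and IgM polymers, had 10.1 and 27.8 RPKM in depleted livers, 0.353 and 0.878 RPKM in undepleted livers and 0.508 and 0.307 RPKM in Aire+/+ livers (log2 difference 3.67 ± 0.44, adjusted p = 0.0202). The depleted livers were highest for both genes. Cxcl13, the chemokine of B cell follicles, had 4.24 and 6.74 RPKM in depleted livers, 3.96 and 4.04 RPKM in undepleted livers and 0.239 and 0.296 RPKM in Aire+/+ livers (log2 difference 2.33 ± 0.27, adjusted p = 0.0184). For this gene the depleted and undepleted livers were close in level. Of 6 plasma cell genes Jchain was the 1 that rose, and none of 5 B cell genes passed (median 0.01). Cd79a, of the B cell receptor, had 0.645 and 0.876 RPKM in depleted livers, 4.68 and 0.506 RPKM in undepleted livers and 1.33 and 2.01 RPKM in Aire+/+ livers. Raet1c, of the RAE-1 ligands of the NK receptor NKG2D, rose too, with 7.44 and 17.2 RPKM in depleted livers, 2.41 and 1.17 RPKM in undepleted livers and 1.15 and 0.187 RPKM in Aire+/+ livers (log2 difference 2.96 ± 0.46, adjusted p = 0.0497).

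Myeloid marker lists held no call, and depleted replicate 2 was the higher of its pair. None of 26 monocyte and recruited macrophage genes passed, and the median was 0.65. Beside 20.2% and 28.8% of all genes, 14 of them lay above and 2 below without overlap. For 19 neutrophil genes the numbers were 14 and 0, with a median of 0.97 and no call, and for 15 Kupffer cell genes 7 and 1, with a median of 0.60. In depleted replicate 2, 14 of the 26 monocyte, 13 of the 19 neutrophil and 8 of the 15 Kupffer cell genes were higher by at least 1 (log2) than in replicate 1. The summed Kupffer cell level was 234 and 573 RPKM in depleted livers, 1030 and 863 RPKM in undepleted livers and 253 and 244 RPKM in Aire+/+ livers. The summed neutrophil level was 188 and 2750 RPKM in depleted livers, 748 and 1330 RPKM in undepleted livers and 218 and 244 RPKM in Aire+/+ livers. Depleted replicate 1 thus lay below both Aire+/+ livers in both sums, which follow their most abundant members. By estimate against Aire+/+, 19 of the 19 neutrophil and 11 of the 15 Kupffer cell genes lay above 0. S100a8, a calprotectin subunit of neutrophils, had 41.2 and 148 RPKM in depleted livers, 152 and 244 RPKM in undepleted livers and 12.5 and 17.9 RPKM in Aire+/+ livers (adjusted p = 0.192). Clec4f, the Kupffer cell lectin, had 25.1 and 80.2 RPKM in depleted livers, 73.6 and 31.3 RPKM in undepleted livers and 37.8 and 38.2 RPKM in Aire+/+ livers. The C-type lectin genes Cd209f and Cd209g fell. Cd209f had 0.0169 and 0.0117 RPKM in depleted livers, 0.594 and 0.104 RPKM in undepleted livers and 5.31 and 4.85 RPKM in Aire+/+ livers (log2 difference −2.58 ± 0.24, adjusted p = 0.00835). Cd209g was listed at 0 in both depleted livers, with 0.161 and 0 RPKM in undepleted livers and 2.08 and 1.39 RPKM in Aire+/+ livers (adjusted p = 0.0409).

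**Figure D5:**
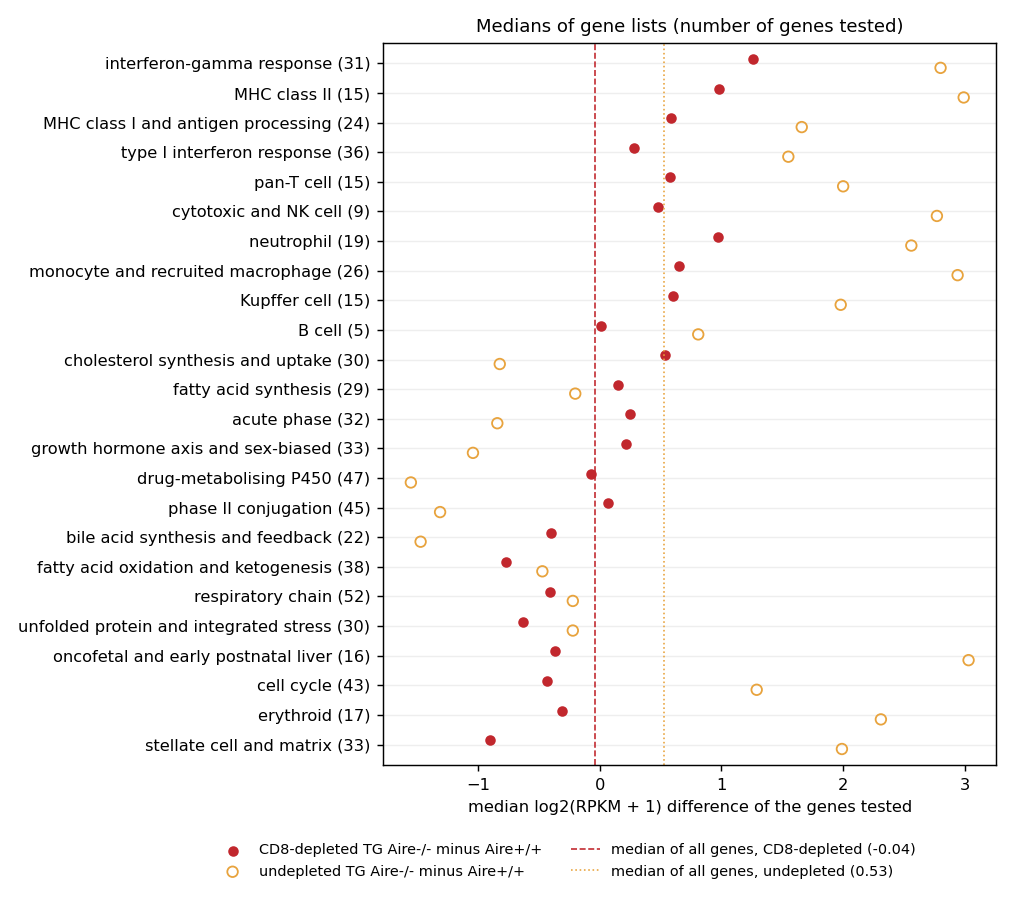
Median difference of log2(RPKM + 1) from Aire+/+ liver for 24 gene lists, filled for CD8-depleted TG Aire-/- and open for undepleted TG Aire-/- livers, which share the same Aire+/+ libraries, with dashed and dotted lines at the medians of all genes (−0.04 and 0.53). Interferon-γ and class II lists lie furthest to the right for depleted livers (1.26 and 0.98) and the stellate cell and matrix list furthest to the left (−0.90).

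Matrix and stellate cell genes lay below wild type. None of 33 on the list passed, and the median was −0.90. In this list 26 lay below and 0 above without overlap, beside 28.8% and 20.2% of all genes. Their sum was 311 and 345 RPKM in depleted livers, 1620 and 3220 RPKM in undepleted livers and 585 and 701 RPKM in Aire+/+ livers. Col1a1, the main fibrillar collagen chain, had 0.428 and 4.08 RPKM in depleted livers, 98.6 and 124 RPKM in undepleted livers and 6.39 and 13.4 RPKM in Aire+/+ livers (log2 difference −1.94 ± 0.59, adjusted p = 0.276). Acta2, smooth muscle actin, had 0.228 and 0.676 RPKM in depleted livers, 50.9 and 33.5 RPKM in undepleted livers and 1.59 and 2.17 RPKM in Aire+/+ livers (adjusted p = 0.287). Outside the list, Eln, elastin, fell to 0.244 and 1.35 RPKM in depleted livers, against 40.6 and 19.6 RPKM in undepleted livers and 10.8 and 16.2 RPKM in Aire+/+ livers (log2 difference −3.06 ± 0.45, adjusted p = 0.0409). Myl9, a smooth muscle myosin light chain, fell to 0.914 and 1.28 RPKM in depleted livers, against 42.5 and 31.8 RPKM in undepleted and 5.95 and 6.57 RPKM in Aire+/+ livers (log2 difference −1.80 ± 0.27, adjusted p = 0.0434). Erythroid genes had no call among 17, with 11 below and 1 above (median −0.31). Hbb-bt, a beta globin, had 83.3 and 172 RPKM in depleted livers, 5100 and 3200 RPKM in undepleted livers and 488 and 375 RPKM in Aire+/+ livers (adjusted p = 0.203).

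A few genes of pancreatic enzymes were measured in Aire+/+ livers and were at or near 0 elsewhere. Pnliprp1, a pancreatic lipase relative (chromosome 19, 58728887 to 58744169, plus strand), was listed at 0 in all depleted and undepleted livers and had 5.66 and 6.23 RPKM in Aire+/+ livers (adjusted p = 0.00287). Amy2a5, pancreatic amylase, had 0.186 and 0.0445 RPKM in depleted livers, 0.0957 and 0.0183 RPKM in undepleted livers and 5 and 6.38 RPKM in Aire+/+ livers (log2 difference −2.58 ± 0.22, adjusted p = 0.0053). Amy2a2 and 2 copies with identical values fell too. Of 22 pancreas and gut markers on the list 6 were tested, and Amy2a5 was the 1 that fell. The pancreatic markers Prss2, Cpa1, Cela3b, Ctrb1, Pnlip and Clps were listed at 0 in all 6 livers.

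Other calls were of mixed function. Slc1a4, a neutral amino acid transporter, had 0.832 and 2.39 RPKM in depleted livers, 9.14 and 11.7 RPKM in undepleted livers and 16.1 and 16 RPKM in Aire+/+ livers (fell by 2.78 ± 0.34, adjusted p = 0.0202). Cldn1, a tight junction claudin, had 9.3 and 9.42 RPKM in depleted livers, 21.4 and 17 RPKM in undepleted livers and 40.1 and 41.7 RPKM in Aire+/+ livers (fell by 2.02 ± 0.25, adjusted p = 0.0218). Pcp4l1 fell by 3.69 ± 0.30 and Calml4, of the calmodulin-like genes, fell by 2.82 ± 0.29 (adjusted p = 0.00455 for Pcp4l1 and 0.0115 for Calml4). Egfr, the receptor of epidermal growth factor, had 35.8 and 60.1 RPKM in depleted livers, 21.3 and 24.4 RPKM in undepleted livers and 8.85 and 11.4 RPKM in Aire+/+ livers (log2 difference 2.10 ± 0.32, adjusted p = 0.0467). Eif4e3, a cap-binding protein, had 7.31 and 17.4 RPKM in depleted livers, 17.9 and 20.4 RPKM in undepleted livers and 0.827 and 1.04 RPKM in Aire+/+ livers (log2 difference 2.68 ± 0.38, adjusted p = 0.0369). The long noncoding RNA Dreh and the small nucleolar RNA Snord57 rose as well, and Tead2, Clpx, Slc45a3, Slc39a5, Itm2a, Tcf24, Slc6a11 and Mir8093 fell. These calls were weak. Dreh, Snord57, Tead2, Clpx, Slc39a5, Slc6a11 and Mir8093 lost theirs in every fit that left out 1 library and included them. Slc45a3, Itm2a and Tcf24 kept theirs in only 1 of those fits.

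The direct comparison of depleted with undepleted TG Aire-/- livers, which shares the depleted libraries with the comparison above, gave 549 genes higher (4.49%) and 4097 lower (33.5%). The median gene differed by −0.58. Scaled by the median of ratios, which brings that median to 0.04, the numbers were 1287 and 1682, so the balance of higher and lower genes rests on the scaling. The undepleted livers set against Aire+/+ gave 3892 higher (31.8%) and 673 lower (5.5%) with a median of 0.53, and 1890 and 1544 after that scaling (median −0.03). Relative to these shifts the named genes differed by far more. Afp fell by 7.96 ± 0.29 on the log2 scale in depleted against undepleted livers, Gpc3 fell by 5.74 ± 0.26, and Fabp4, a fatty acid binding protein of macrophages and endothelium, fell by 6.25 ± 0.50. Fabp4 had 2.72 and 6.27 RPKM in depleted livers, 257 and 604 RPKM in undepleted livers and 9.39 and 5.63 RPKM in Aire+/+ livers. Hamp rose by 8.95 ± 0.55, Wfdc21 by 6.97 ± 0.26 and Cyp2e1 by 6.38 ± 0.44. H2-Ab1 fell by 2.08 ± 0.49, while Tgtp1 and Tgtp2 did not pass against the undepleted livers (adjusted p = 0.143 for Tgtp1 and 0.0862 for Tgtp2).

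List counts in this direct test show which groups separated the TG Aire-/- livers. In depleted livers 0 of 31 interferon-γ genes were higher and 18 lower (median −1.46), 0 and 11 of 15 class II genes (median −2.08), and 0 and 29 of 33 matrix genes (median −2.85). Of 16 oncofetal genes 14 fell (median −3.62), and of 43 cell cycle genes 40 fell (median −1.82). Of 47 P450 genes 26 rose and 4 fell (median 1.67), and of 45 phase II genes 24 rose and 1 fell (median 1.59). These stand beside 4.49% higher and 33.5% lower of all genes and a median of −0.58, and they were computed on RPKM as deposited.

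The depleted livers differed from each other by list. Of 30 cholesterol genes 15 were higher by at least 1 (log2) in replicate 2 and 2 lower, and of 19 neutrophil genes 13 were higher and 0 lower. Of 41 genes of amino acid breakdown 1 was higher and 14 were lower by at least 1 in replicate 2. G6pc, glucose-6-phosphatase, had 514 RPKM in replicate 1 and 22.9 RPKM in replicate 2, against 221 and 209 RPKM in Aire+/+ livers. Sult2a1 had 145 and 0 RPKM in depleted replicates 1 and 2, against 914 and 936 RPKM in Aire+/+ livers. G6pc lay on both sides of wild type within the depleted pair, while Sult2a1 lay below it in both livers. Their part in the other results was not tested.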

How the data were processed

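RNA-seq of whole mouse liver was analysed from 6 libraries of the second batch, 2 each of CD8-depleted TG Aire-/-, undepleted TG Aire-/- and Aire+/+, out of 22 samples. The authors deposited RPKM values per gene symbol. Reads were aligned with STAR 2.5.2b to mm10, per the submitters' processing notes; the annotation and counting tool are not given there. The tables of thymus and of sorted cells and the other liver batch were not used. RPKM is not a count, so no count model was run. The low values were searched for whole reads: at the best depth 40.3% to 45% of values of 6084 single-transcript genes lay within 0.1 read of a whole number, so reads were not recovered, and the inferred depths are approximate. For a gene 2000 bases long, 3 reads would then be 0.0661 to 0.0739 RPKM.

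Genes at 1 RPKM or more in at least 2 livers were fitted as log2(RPKM + 1) with limma 3.58.1 (R 4.3.3), with 1 mean per group over all 6 livers, a variance trend, two-sided tests and Benjamini-Hochberg adjustment over 12231 genes. The undepleted livers thus share in the estimate of spread. A false share of 4.03% was found among calls in simulated data. Each simulated gene had the same spread in every group, so the share may not hold for this comparison. In 37 sets, 85 genes had identical values. The genes named are checks of genotype and sex, the 15 largest rises and 15 largest falls against Aire+/+ among genes past the threshold without overlap, fixed anchor genes of each list, up to 4 further called members a list, and the 10 largest rises and falls against undepleted livers; unnamed gene models are only counted. Acss2, Amy2a2, Bdh1, Cd209f, Cd209g, Ces3b, Cldn1, Clpx, Cyp26a1, Dreh, Egfr, Eif4e3, G0s2, Id1, Igf2, Igfals, Itm2a, Lcn2, Mir8093, Mt1, Myl9, Raet1c, Rdh9, Slc22a7, Slc39a5, Slc45a3, Slc6a11, Snord57, Sult2a1, Tcf24, Tead2, Tfrc and the 6 pancreatic markers at 0 lie outside that rule and were chosen after their values were seen. The members and lists were chosen with earlier results of these data known. Positions are from GENCODE vM21 (GRCm38), promoter and microRNA sequences from RefSeq (GRCm38.p6). Alternatives changed the pseudocount, filter, scaling, variance model, groups fitted, replicate block, sample weights, minimum change, sex term and each library.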

Additional observations from a re-analysis of the deposited data

How the results depend on the processing

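For depleted against Aire+/+ livers (27 genes higher and 40 lower), counts moved by over 1.5 times in at least 1 direction under several settings. They were 4 and 13 with no filter on low values, 46 and 53 scaled by the median of ratios, 44 and 51 scaled to the same upper quartile, 5 and 7 with only these groups fitted, 78 and 112 with sample weights, 9 and 8 with a minimum log2 difference of 1, 6 and 10 with sex as a covariate, and 2 and 2 in male livers only, a setting chosen after seeing the data. Leaving out 1 library gave 5 to 94 higher and 7 to 47 lower. For depleted against undepleted livers (549 and 4097), they were 1287 and 1682 by the median of ratios, 1007 and 1981 by the upper quartile, 351 and 2824 with only these groups, 360 and 2840 with sample weights, 89 and 407 with the minimum difference, 319 and 2626 with sex, and 472 and 2395 with a filter of 5 RPKM. Leaving out 1 library gave 186 to 539 and 1108 to 4198. For undepleted against Aire+/+ livers (3892 and 673), they were 2238 and 588 with that filter, 1890 and 1544 by the median of ratios, 2144 and 1274 by the upper quartile, and 443 and 89 with the minimum difference, and 1038 to 4241 and 199 to 861 without 1 library. The cause was not tested, except that a smaller fit holds fewer libraries.

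Replicate numbers were fitted as a block although nothing in the labels pairs the livers. With the replicate block the counts were 30 and 33 against Aire+/+, 534 and 3893 against undepleted livers, and 3700 and 641 for undepleted against Aire+/+. Deviations of same-numbered livers correlated at −0.145 (depleted and undepleted), −0.0925 (depleted and Aire+/+) and 0.292 (undepleted and Aire+/+) across 12231 genes. The crossed replicate block, added after seeing the data, gave 609 and 4287 between depleted and undepleted livers.

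Over 156 genes and 2708 checks of the difference from Aire+/+, 2160 kept direction and side of the threshold, 471 lost their call, 66 gained one and 11 changed direction. Those 11 concern genes that did not pass. Without 1 library, Saa1 ranged from −0.62 to 4.71, Lcn2 from −1.06 to 3.75, G6pc from −3.18 to 1.25, Clec4f from −0.58 to 1.06, Mki67 from −0.75 to 0.35, Alb from −0.63 to 0.39 and Igf1 from −0.24 to 0.05. In male livers only, Igf1 was at 0.05 and Mki67 at 0.07, and with sex as a covariate Clec4f was at −0.06. Depth limits genes near 0.0739 RPKM, the level of 3 reads on 2000 bases.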

Other observations

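Clock and protein-folding genes gave no call against Aire+/+. Of 19 clock genes 9 lay above and 4 below wild type without overlap (median log2 difference 0.35). Arntl, the clock activator, had 0.949 and 0.292 RPKM in depleted livers, 4.1 and 4.34 RPKM in undepleted livers and 4.41 and 4.08 RPKM in Aire+/+ livers (limma adjusted p = 0.0521). Both depleted livers lay below all others. Dbp, a clock output gene, had 12 and 53.7 RPKM in depleted livers, 9.3 and 5.93 RPKM in undepleted livers and 2.81 and 5.25 RPKM in Aire+/+ livers (adjusted p = 0.203). The hour at which each liver was taken is not in the sources used, so it cannot be told apart from group.

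Of 30 genes of the unfolded protein and integrated stress responses none passed (median −0.63). Among them 19 lay below wild type and 4 above without overlap, beside 28.8% and 20.2% of all genes. Hspa5, the chaperone BiP, had 181 and 197 RPKM in depleted livers, 255 and 411 RPKM in undepleted livers and 388 and 430 RPKM in Aire+/+ livers (adjusted p = 0.291). Ddit3, the stress transcription factor CHOP, had 2.67 and 7.68 RPKM in depleted livers, 15.1 and 44.1 RPKM in undepleted livers and 10.1 and 12.5 RPKM in Aire+/+ livers (adjusted p = 0.538). Of 52 respiratory chain genes none passed, and the median was −0.41. Among them 34 lay below and 0 above without overlap, beside 28.8% and 20.2% of all genes.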
